A study of Mus musculus with 14 samples.

Results

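The genes described here belong to protein families that act in bringing secretory granules to the cell surface and fusing them with it, or in related vesicle traffic. As a group they are called granule genes below, although Rab15 and Rep15 are described from endocytic recycling. The members were picked by name from protein families, which were not taken whole, with earlier results of these data known. Shares of all genes printed beside their counts are therefore a description and no test of the group. Members are the synaptotagmin-like proteins Sytl1, Sytl2, Sytl4 and Sytl5, the small GTPases Rab27a, Rab27b and Rab15, the Rab15 partner Rep15, the vesicle SNARE Vamp8 and the ferlin Fer1l6. They are 10 of the 36536 genes in each deposited count table, and all 10 were abundant enough to be tested in every comparison.

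RNA was measured in 14 mouse libraries, with colon and ileum treated alike, to find the genes that depend on ATOH1, the transcription factor that directs intestinal progenitors to the secretory fate. The sorted-cell group (GFP, 3 libraries per tissue) held live GFP-positive cells, negative for the dead-cell dye 7AAD, from crypts of Atoh1 GFP/GFP mice, whose ATOH1-GFP fusion is functional and whose age is not given. The knockout group (KO, 2 per tissue) held whole crypts of Atoh1 lox/lox;VilCreERT2 mice, and the WT group (2 per tissue) held whole crypts of Atoh1 lox/WT;VilCreERT2 littermates, all 6 to 8 weeks old. The WT mice therefore also carried the Cre and 1 floxed allele. VilCreERT2 is an inducible recombinase under the Villin promoter, which is active in the intestinal epithelium, so other cells in the crypt preparations keep Atoh1. The labels do not say that libraries came from separate animals, so p-values measure the spread between these libraries only.

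Secretory cells store mucins, antimicrobial peptides or hormones in granules and release them by exocytosis. Rab27 GTPases sit on the granule and recruit effectors, among them the synaptotagmin-like proteins, whose amino-terminal domain binds Rab27 and whose C2 domains bind the plasma membrane. Fusion is then carried out by SNARE proteins on the granule and the target membrane. In the intestine the cells built around such granules are goblet, Paneth and enteroendocrine cells.

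Gene counts were 7478418 to 12991891 per sorted-cell library and 8848660 to 10870416 per crypt library. Mitochondrial ribosomal RNA made up 30.0 to 44.9% of gene counts in sorted cells against 0.136 to 0.219% in crypts. Values below are CPM, gene counts relative to library size after composition scaling, listed in the order of the replicate numbers. Atoh1 averaged 5.55 CPM in KO against 53.6 CPM in WT crypts of the colon, and 0.771 CPM in KO against 40.3 CPM in WT crypts of the ileum. The 10 goblet markers summed to 65697 to 71123 CPM in colon GFP, 1876 to 1966 CPM in colon KO and 10650 to 22990 CPM in colon WT libraries. In ileum the same sum was 46827 to 133594 CPM in GFP, 225 to 576 CPM in KO and 11279 to 16164 CPM in WT libraries. The 9 Paneth markers summed to 58649 to 83133 CPM in ileum GFP, 1079 to 1711 CPM in ileum KO and 10266 to 35515 CPM in ileum WT libraries. Taken singly against WT, 2 of the 9 were called lower by edgeR in ileum KO. In ileum GFP 0 of the 9 were called in either direction (median log2 fold change 0.754). The 10 enteroendocrine markers summed to 95.5 to 116 CPM in colon GFP, 90.2 to 126 CPM in colon KO and 186 to 201 CPM in colon WT libraries, and to 90.4 to 154 CPM in ileum GFP, 41.0 to 45.0 CPM in ileum KO and 170 to 184 CPM in ileum WT libraries. Of these 10, edgeR called 5 lower in ileum KO and 0 in colon KO, while in sorted cells 7 were lower and 1 higher in ileum and 6 lower and 1 higher in colon. In these bulk samples fewer cells of a type and less RNA per cell cannot be told apart.

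Promoter sequence is shown for the 3 members whose windows, among those read, held a match to the motifs below. Sytl4 is shown as well, since its values separate from those of Sytl1 in colon. Windows of 6 of the 10 members were read from the RefSeq table (build GRCm38.p6), 10 windows in all. Rab27b was left out before the search. In each window the 250 bases before the annotated start were read. ATOH1 is a basic helix-loop-helix factor, a class that binds E-boxes, and 2 forms of the E-box were searched on both strands. The form CAGCTG, which reads the same on both strands, was found in 13.0% of 32851 windows of this length in the genome, and CAGATG or its complement CATCTG in 14.4%. At least 1 of them was found in 25.5% of all windows and in 4 of the 10 member windows, which belong to Sytl1, Rab27a and Rab15. Capitals mark CAGCTG in the windows of Sytl1 (chr4:133263088-133263337, minus strand), the downstream start of Rab27a (chr9:73063898-73064147, plus strand) and the upstream start of Rab15 (chr12:76822525-76822774, minus strand). The window of Sytl4 (chrX:133981813-133982062, minus strand) held neither form.
Sytl1: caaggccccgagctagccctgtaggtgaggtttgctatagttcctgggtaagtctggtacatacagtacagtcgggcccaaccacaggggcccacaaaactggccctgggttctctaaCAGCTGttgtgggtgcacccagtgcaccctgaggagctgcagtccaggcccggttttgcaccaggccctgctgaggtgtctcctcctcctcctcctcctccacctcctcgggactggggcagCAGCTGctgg
Sytl4: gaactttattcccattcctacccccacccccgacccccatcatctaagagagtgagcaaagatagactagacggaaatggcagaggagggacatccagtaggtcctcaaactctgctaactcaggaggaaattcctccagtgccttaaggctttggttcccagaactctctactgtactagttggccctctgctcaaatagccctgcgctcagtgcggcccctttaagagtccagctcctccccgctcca
Rab27a: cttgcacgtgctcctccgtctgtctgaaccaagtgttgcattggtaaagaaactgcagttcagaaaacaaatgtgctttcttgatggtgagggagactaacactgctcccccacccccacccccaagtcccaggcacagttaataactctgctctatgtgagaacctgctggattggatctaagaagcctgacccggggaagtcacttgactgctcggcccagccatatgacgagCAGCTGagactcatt
Rab15: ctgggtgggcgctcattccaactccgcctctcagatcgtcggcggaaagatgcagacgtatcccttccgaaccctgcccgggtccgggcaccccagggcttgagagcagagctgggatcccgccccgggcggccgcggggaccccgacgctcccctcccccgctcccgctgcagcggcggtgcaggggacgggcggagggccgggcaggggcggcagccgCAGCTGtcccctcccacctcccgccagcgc
The Sytl1 matches began 132 and 10 bases before the start, that of Rab27a 15 and that of Rab15 30 bases before it. A second Rab15 window held CAGATG, 16 bases before its start. The windows of Sytl4, Sytl5 and Vamp8 and the other Rab27a window held none of these letters.

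Most of the granule genes were lower in Atoh1 KO crypts of the ileum, and 2 members, Vamp8 and Sytl1, differed little between KO and WT. Of the 10 members 6 fell in ileum KO crypts (edgeR, Benjamini-Hochberg adjusted p under 0.05 over all genes), where 1.09% of the 14415 genes tested were called lower and 0.132% higher. In colon KO crypts 1 member fell, Sytl2, where 0.146% of genes were called lower and 0.00694% higher. The median log2 fold change of the members was -2.70 in ileum and -1.25 in colon, against 0.01 for all genes in each tissue. Libraries of the groups did not overlap for 8 members that were lower in ileum KO (21.9% of all genes did so, and 18.0% in the higher direction). In colon 8 members were lower without overlap and 2 were higher (20.1% and 22.5% of all genes).

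**Figure D1:**
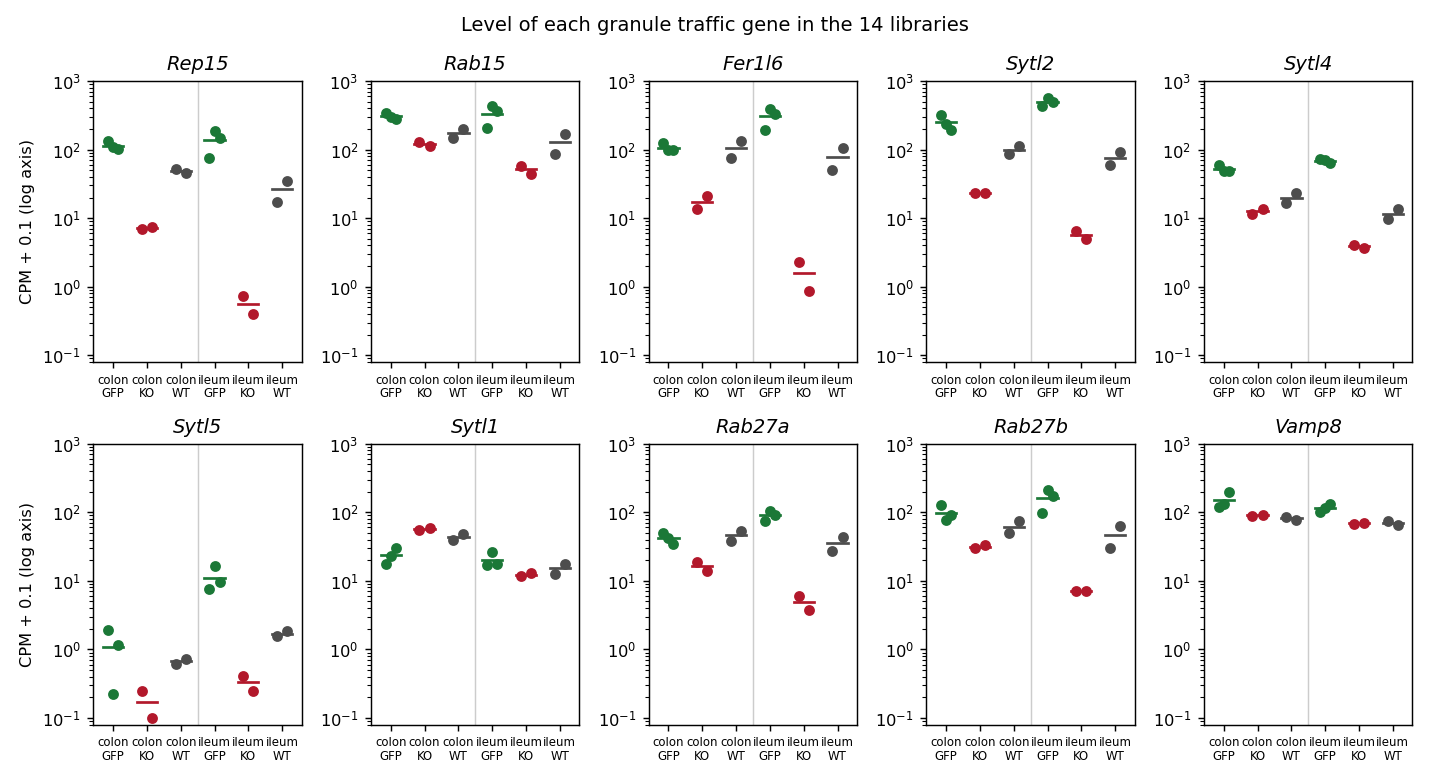
Level of each of the 10 granule genes in the 14 libraries, as CPM plus 0.1 on a log axis, with 1 panel per gene. Points are libraries, bars are group means, and the order in each tissue is GFP (3 libraries), KO (2) and WT (2). Rep15 and Fer1l6 in ileum KO stood near 1 CPM, while Vamp8 stayed between 64.4 and 198 CPM in every library.

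The steepest differences were those of Rep15 and Fer1l6. Rep15 (ENSMUSG00000040121) is an effector of Rab15 in endocytic recycling. It had 0.625 and 0.301 CPM in ileum KO crypts, from 12 counts over both libraries, against 16.9 and 35.2 CPM in ileum WT crypts. It fell by 5.76 on the log2 scale (SE 0.50, edgeR adjusted p = 0.00864), to 1.78% of the WT mean. In colon Rep15 had 6.93 and 7.24 CPM in KO against 51.1 and 45.5 CPM in WT crypts. These groups lay far apart, yet the difference missed the threshold (log2 fold change -2.78, SE 0.35, edgeR adjusted p = 0.058). DESeq2 called it, as did edgeR when fitted to all 14 libraries or to the 4 colon libraries alone (edgeR adjusted p = 0.000384). The 8 other settings, among them no filter on low counts, the replicate block and each colon library left out, did not call it (edgeR adjusted p = 0.0588 to 0.625).

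Fer1l6 (ENSMUSG00000037106) belongs to the ferlins, membrane proteins with several C2 domains whose better known members act in membrane fusion. Fer1l6 had 2.19 and 0.752 CPM in ileum KO crypts against 49.5 and 106 CPM in ileum WT crypts. Both KO libraries were far below both WT libraries, and the gene fell by 5.70 on the log2 scale (SE 0.69, edgeR adjusted p = 0.0274). In colon it had 13.4 and 20.9 CPM in KO against 76.4 and 135 CPM in WT crypts, again without overlap (log2 fold change -2.63, SE 0.53, edgeR adjusted p = 0.219). This colon difference was called by DESeq2 (adjusted p = 0.0156) and by edgeR fitted to all 14 libraries (adjusted p = 0.0397), and by no other alternative.

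Among the synaptotagmin-like genes the KO values went different ways. Sytl2 (ENSMUSG00000030616) encodes a Rab27 effector that tethers vesicles to the plasma membrane. It had 6.33 and 4.81 CPM in ileum KO against 60.1 and 90.8 CPM in ileum WT crypts, and fell by 3.73 on the log2 scale (SE 0.27, edgeR adjusted p = 0.00343). In colon both KO libraries stood at 22.8 CPM, against 85.3 and 114 CPM in WT, and the gene fell by 2.14 (SE 0.24, edgeR adjusted p = 0.0408). The groups were apart in both tissues. The colon call was lost when any 1 of the 4 colon libraries was left out (edgeR adjusted p = 0.498 and 0.509 without KO 1 and KO 2, 0.0824 and 0.2 without WT 1 and WT 2).

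Sytl4 (ENSMUSG00000031255), also called granuphilin, docks dense-core granules in endocrine cells. It had 3.98 and 3.61 CPM in ileum KO against 9.52 and 13.4 CPM in ileum WT crypts, and fell by 1.56 on the log2 scale (SE 0.25, edgeR adjusted p = 0.0429). In colon KO crypts it had 11.6 and 13.4 CPM against 16.5 and 23.0 CPM in WT crypts. The colon groups were apart by a small gap and the difference did not pass (log2 fold change -0.68, SE 0.23, edgeR adjusted p = 0.496).

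Sytl1 and Sytl5 did not pass in either tissue. Sytl1 (ENSMUSG00000028860), the Rab27 effector of the family best known from leukocyte granules, had 54.5 and 58.4 CPM in colon KO against 39.9 and 47.4 CPM in colon WT crypts. The KO libraries were the higher ones (log2 fold change 0.36, SE 0.17, edgeR adjusted p = 0.719). In ileum Sytl1 had 11.6 and 12.7 CPM in KO against 12.6 and 17.7 CPM in WT crypts, and the groups overlapped (log2 fold change -0.28, SE 0.19, edgeR adjusted p = 0.571). Sytl5 (ENSMUSG00000054453) was near the detection limit, with 2 counts in colon KO against 15 in colon WT and 6 in ileum KO against 40 in ileum WT (edgeR adjusted p = 0.47 and 0.168).

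Both Rab27 genes, Rab27a (ENSMUSG00000032202) and Rab27b (ENSMUSG00000024511), fell in ileum KO crypts. Rab27a had 5.94 and 3.68 CPM in ileum KO against 27.0 and 43.1 CPM in ileum WT crypts (log2 fold change -2.83, SE 0.35, edgeR adjusted p = 0.0248). Rab27b had 7.03 and 7.07 CPM in ileum KO against 29.9 and 63.5 CPM in ileum WT crypts (log2 fold change -2.69, SE 0.40, edgeR adjusted p = 0.0429). Both KO libraries of each gene were below both WT libraries. In colon Rab27a had 18.4 and 13.98 CPM in KO against 38.3 and 53.3 CPM in WT crypts (log2 fold change -1.51, SE 0.32, edgeR adjusted p = 0.217). Rab27b had 29.5 and 33.1 CPM in colon KO against 49.7 and 74.1 CPM in colon WT crypts (log2 fold change -0.99, SE 0.36, edgeR adjusted p = 0.562). Neither colon difference passed, although the libraries did not overlap. For Rab27a it was called by DESeq2 (adjusted p = 0.00114) and by edgeR fitted to all 14 libraries (adjusted p = 0.0343), and by no other alternative. For Rab27b no alternative called it.

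Rab15 (ENSMUSG00000021062), a GTPase of the recycling endosome, was lower without passing the test. It had 58.0 and 44.7 CPM in ileum KO against 86.9 and 171 CPM in ileum WT crypts (log2 fold change -1.29, SE 0.34, edgeR adjusted p = 0.172). The 2 WT libraries differed more from each other than the KO libraries did, and without ileum WT 1 the gene was called (edgeR adjusted p = 0.00463). In colon Rab15 had 127 and 112 CPM in KO against 148 and 203 CPM in WT crypts (log2 fold change -0.57, SE 0.33, edgeR adjusted p = 0.832).

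Vamp8 (ENSMUSG00000050732), the granule-side SNARE of mucin and zymogen exocytosis, was the most even member. It had 67.5 and 70.6 CPM in ileum KO against 73.8 and 64.4 CPM in ileum WT crypts, with the KO values inside the WT range (log2 fold change 0.03, SE 0.10, edgeR adjusted p = 0.922). Colon values were 88.8 and 90.8 CPM in KO against 86.1 and 77.5 CPM in WT crypts (log2 fold change 0.12, SE 0.10, edgeR adjusted p = 0.906). Vamp8 and Rep15 thus lay at the ends of the members' range in ileum, where Rep15 stood at 1.78% and Vamp8 at 99.9% of their WT means.

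The ileum calls rested on both KO libraries: without KO 1 or without KO 2 the count of called members was 0 (edgeR adjusted p of the 6 genes 0.0643 to 0.244 and 0.0878 to 0.336), as it was with the 4 ileum libraries alone (0.0523 to 0.192). Without ileum WT 2, Sytl4 and Fer1l6 were not called (edgeR adjusted p = 0.0583 to 0.0645), and with no filter on low counts Rab27b and Fer1l6 were not (edgeR adjusted p = 0.102 to 0.119). The WT libraries differed in other cell types. Tuft markers summed to 22.3 CPM in the first ileum WT library against 318 CPM in the second, immune markers to 1846 against 539 CPM, and their part in the result was not tested.

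The KO log2 fold change was lower in ileum than in colon for 9 of the 10 members, but this difference did not pass for any of them. In the interaction test (the KO effect in colon minus that in ileum) 0 members were called by edgeR, against 0.00694% of all genes, and the lowest adjusted p was 0.91. At an unadjusted p under 0.05 there were 7 members, against 563 of the 14415 genes tested. DESeq2 called 2 members, Sytl2 and Rep15, against 58 of all genes. The interaction estimate was 2.98 for Rep15 (SE 0.65), 3.07 for Fer1l6 (SE 0.86) and 1.59 for Sytl2 (SE 0.35). Atoh1 itself stood at 10.3% of its WT mean in colon KO and at 1.91% in ileum KO crypts. Its interaction estimate was 2.385 (SE 0.377, edgeR adjusted p = 0.436), and the median of the 10 goblet markers was 2.334. Their part in the differences of the members was not tested. Without ileum WT 1 edgeR called Sytl2, Rab27b and Rep15 (adjusted p = 0.0032 to 0.0188).

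**Figure D2:**
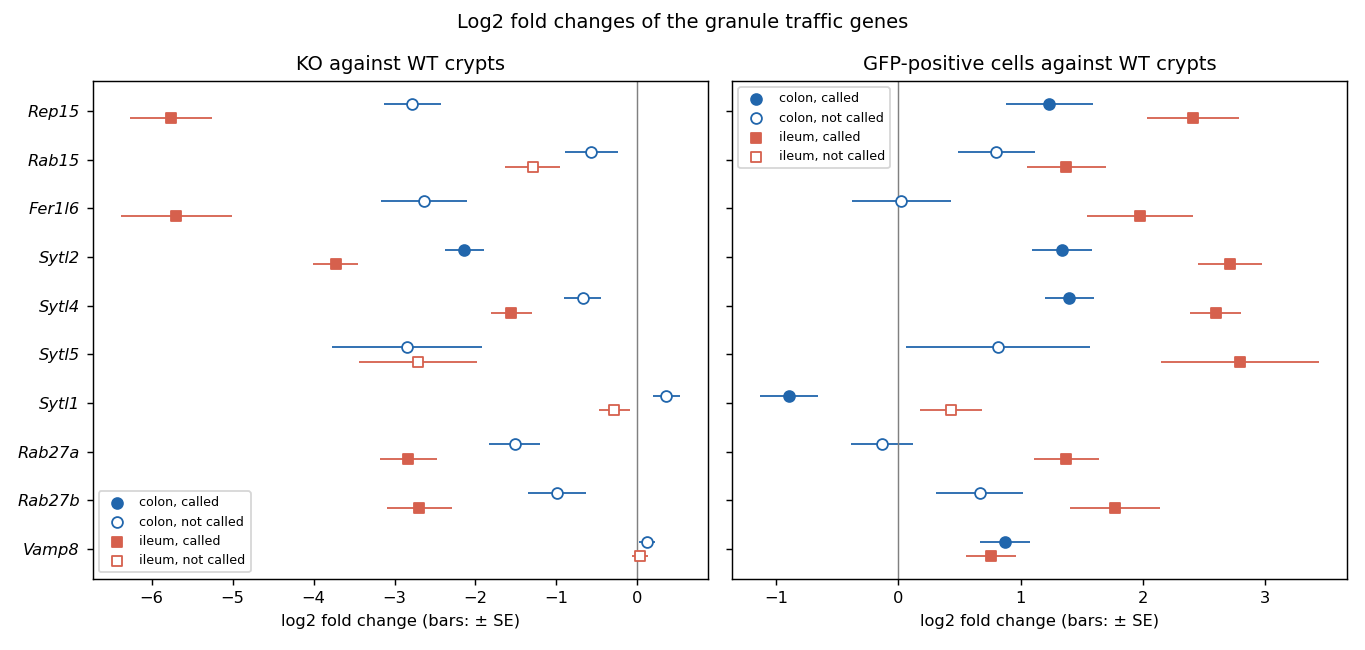
Log2 fold change of each granule gene in KO crypts against WT crypts (left) and in sorted GFP-positive cells against WT crypts (right), with bars of 1 SE. Circles are colon and squares ileum, filled where the edgeR adjusted p was under 0.05. In ileum Rep15 lies at -5.76 for KO and 2.41 for GFP, while Vamp8 lies at 0.03 and 0.76.

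In sorted GFP-positive cells of the ileum nearly the whole group was higher than in ileum WT crypts, and in colon a smaller part of it was. The sorted cells and the crypts differ in purification, genotype and share of mitochondrial ribosomal RNA as well as in cell type, which cannot be told apart, and the KO and GFP comparisons share the WT libraries. In ileum 9 of 10 members rose, against 24.6% of the 15274 genes tested (28.1% were lower), with a median of 1.87 on the log2 scale against -0.06 for all genes. All 9 also stood above every WT library, as did 30.9% of all genes (34.0% stood below). In colon 4 members rose and 1 fell, against 22.3% higher and 23.6% lower of all genes, with a median of 0.81 against 0.01. There 6 members were higher and 1 lower without overlap, against 32.5% and 34.6% of all genes. In both directions together the colon calls (5 of 10 members) were near those of all genes (7007 of 15274), but 4 of the 5 were higher.

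Rep15 rose in sorted cells of both tissues and Rab15 in those of the ileum. Rep15 had 75.4, 189 and 149 CPM in ileum GFP against 16.9 and 35.2 CPM in ileum WT libraries (log2 fold change 2.41, SE 0.38, edgeR adjusted p = 0.000219). In colon it had 131, 107 and 102 CPM in GFP against 51.1 and 45.5 CPM in WT libraries (log2 fold change 1.23, SE 0.35, edgeR adjusted p = 0.0133). All GFP libraries were above all WT libraries, but the colon call was lost without colon WT 1 (edgeR adjusted p = 0.0733) or without colon WT 2. Rab15 had 205, 429 and 366 CPM in ileum GFP against 86.9 and 171 CPM in ileum WT libraries (log2 fold change 1.37, SE 0.32, edgeR adjusted p = 0.00305). In colon Rab15 had 342, 296 and 277 CPM in GFP against 148 and 203 CPM in WT libraries, just short of the threshold (log2 fold change 0.80, SE 0.32, edgeR adjusted p = 0.0525). The first ileum GFP library was the lowest of its group for both genes, and it also had the lowest goblet marker sum.

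Sytl2 and Sytl4 were higher in sorted cells of both tissues. Sytl2 had 431, 561 and 490.0 CPM in ileum GFP against 60.1 and 90.8 CPM in ileum WT libraries (log2 fold change 2.71, SE 0.26, edgeR adjusted p = 2.89e-06). Colon values were 324, 234 and 196 CPM in GFP against 85.3 and 114 CPM in WT libraries (log2 fold change 1.33, SE 0.25, edgeR adjusted p = 0.000668). Every GFP library exceeded every WT library of its tissue. Sytl4 had 72.0, 70.5 and 64.7 CPM in ileum GFP against 9.52 and 13.4 CPM in ileum WT libraries (log2 fold change 2.59, SE 0.21, edgeR adjusted p = 6.17e-07). In colon it had 60.3, 48.3 and 48.0 CPM in GFP against 16.5 and 23.0 CPM in WT libraries (log2 fold change 1.4, SE 0.20, edgeR adjusted p = 8.41e-05). Of the members, Sytl4 had the tightest replicates in ileum GFP cells.

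Sytl5 rose in ileum sorted cells and Sytl1 fell in colon sorted cells. Sytl5 had 7.49, 16.2 and 9.57 CPM in ileum GFP against 1.45 and 1.75 CPM in ileum WT libraries (log2 fold change 2.79, SE 0.65, edgeR adjusted p = 0.00273). In colon GFP it had 17, 1 and 7 counts against 6 and 9 counts in colon WT libraries, so GFP counts lay both above and below those of WT and the difference did not pass (edgeR adjusted p = 0.394). Sytl1 was the only member that fell in sorted cells: it had 17.6, 22.9 and 30.2 CPM in colon GFP against 39.9 and 47.4 CPM in colon WT libraries (log2 fold change -0.89, SE 0.24, edgeR adjusted p = 0.00781). That call was lost without colon WT 2. In ileum Sytl1 had 16.7, 26.6 and 17.6 CPM in GFP against 12.6 and 17.7 CPM in WT libraries, and the groups overlapped (log2 fold change 0.43, SE 0.25, edgeR adjusted p = 0.167).

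The Rab27 genes and Fer1l6 rose in ileum sorted cells and did not pass the test in colon sorted cells. Rab27a had 75.4, 106 and 91.1 CPM in ileum GFP against 27.0 and 43.1 CPM in ileum WT libraries (log2 fold change 1.37, SE 0.26, edgeR adjusted p = 0.000684). Its colon values were 49.0, 41.7 and 34.1 CPM in GFP against 38.3 and 53.3 CPM in WT libraries, with overlapping values (log2 fold change -0.14, SE 0.25, edgeR adjusted p = 0.682). Rab27b had 97.1, 209 and 171 CPM in ileum GFP against 29.9 and 63.5 CPM in ileum WT libraries (log2 fold change 1.77, SE 0.37, edgeR adjusted p = 0.00172). In colon Rab27b had 126, 76.9 and 91.6 CPM in GFP against 49.7 and 74.1 CPM in WT libraries, where the second GFP library nearly met the second WT library (log2 fold change 0.67, SE 0.36, edgeR adjusted p = 0.144). Fer1l6 had 193, 396 and 329.9 CPM in ileum GFP against 49.5 and 106 CPM in ileum WT libraries (log2 fold change 1.98, SE 0.44, edgeR adjusted p = 0.00269). In colon it had 125, 97.7 and 98.3 CPM in GFP against 76.4 and 135 CPM in WT libraries, so the GFP values lay inside the WT range (log2 fold change 0.02, SE 0.41, edgeR adjusted p = 0.971).

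Vamp8, which was even between KO and WT crypts, was higher in sorted cells. It had 99.4, 117 and 134 CPM in ileum GFP against 73.8 and 64.4 CPM in ileum WT libraries (log2 fold change 0.76, SE 0.20, edgeR adjusted p = 0.00663). In colon Vamp8 had 121, 131 and 198 CPM in GFP against 86.1 and 77.5 CPM in WT libraries (log2 fold change 0.87, SE 0.20, edgeR adjusted p = 0.00336). All sorted libraries were above all WT libraries, by less than for Sytl2 or Rep15, and the ileum call was lost without ileum WT 2 (edgeR adjusted p = 0.0695).

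A test of the difference between tissues called 3 members, all with a smaller GFP against WT difference in colon than in ileum, against 0.89% of all genes in that direction and 1.3% in the other. The interaction was -1.38 for Sytl2 (SE 0.34, edgeR adjusted p = 0.0489), -1.20 for Sytl4 (SE 0.27, edgeR adjusted p = 0.0361) and -1.51 for Rab27a (SE 0.36, edgeR adjusted p = 0.0444). It did not pass for Fer1l6 (-1.95, SE 0.58, edgeR adjusted p = 0.111) or Sytl1 (-1.32, SE 0.35, edgeR adjusted p = 0.069). The 3 calls were close to the threshold. The call of Sytl2 was lost when genes above 1% of counts were left out of library sizes (edgeR adjusted p = 0.0535). All 3 were lost with the compared groups alone (edgeR adjusted p = 0.0736 to 0.123) and without colon GFP 2, colon GFP 3, ileum GFP 2, ileum GFP 3, colon WT 2 or ileum WT 1. Without colon WT 1 Sytl4 alone was called. With no filter on low counts 7 members were called, against 1093 of the 28699 genes then tested.

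**Figure D3:**
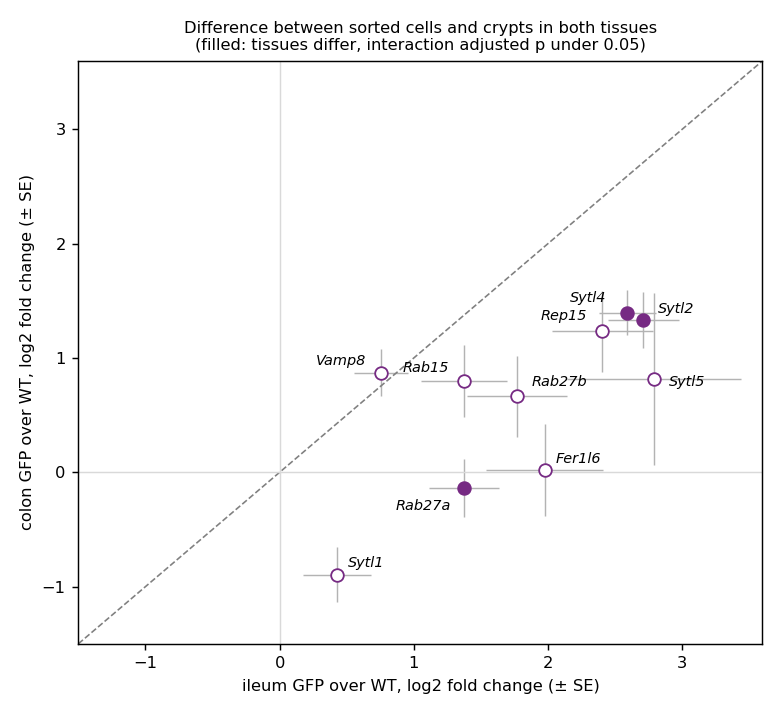
Log2 fold change of sorted GFP-positive cells over WT crypts in ileum (horizontal axis) and colon (vertical axis) for the 10 granule genes, with bars of 1 SE. The dashed line marks equal change, and filled points are the 3 genes whose tissues differed in the interaction test. Rab27a lies at -0.14 in colon and 1.37 in ileum, and Vamp8 at 0.87 in colon and 0.76 in ileum.

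Set directly against each other, colon GFP cells had less of 4 members than ileum GFP cells, against 10.2% of all genes lower and 12.6% higher. Sytl2 differed by -0.98 on the log2 scale (SE 0.21, edgeR adjusted p = 0.00488) and Rab27a by -1.12 (SE 0.23, edgeR adjusted p = 0.00324). Fer1l6 differed by -1.52 (SE 0.37, edgeR adjusted p = 0.0127), and Sytl5 by -3.44, from 25 counts in colon GFP and 243 in ileum GFP libraries (SE 0.60, edgeR adjusted p = 0.00108). The libraries did not overlap for 5 members that were lower in colon GFP (16.2% of all genes, and 18.3% in the higher direction). Rep15 (log2 difference -0.28, edgeR adjusted p = 0.54) and Rab15 (-0.13, edgeR adjusted p = 0.777) did not pass. Paneth markers stood at 155 to 2413 CPM in these colon GFP libraries, and their part in the difference was not tested.

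In WT crypts 2 synaptotagmin-like genes differed between the tissues. Sytl1 was higher in colon WT than in ileum WT crypts by 1.54 on the log2 scale (SE 0.18, edgeR adjusted p = 0.00165) and Sytl4 by 0.81 (SE 0.23, edgeR adjusted p = 0.0488). These were 2 of 10 members, against 10.2% of all genes higher and 9.71% lower. Libraries of 4 members were higher and of 1 lower in colon WT without overlap (28.6% and 30.1% of all genes). The labels name no pairs of libraries. With the library number taken as a block across tissues, Sytl2 and Rab15 were also called, 4 members in all (edgeR adjusted p = 0.042 to 0.045 for the added genes). Leaving out a WT library leaves 1 in its group. The call of Sytl4 was lost without colon WT 1, colon WT 2 or ileum WT 1. Over all alternatives its log2 difference ranged from 0.539 to 1.084, and that of Sytl1 from 1.308 to 1.823.

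Levels of different genes were compared per kilobase of exon (CPM per kb). In ileum GFP cells Rep15 led with 82.9 ± 34.8 CPM per kb, followed by Rab15 with 72.2 ± 25.0 and Vamp8 with 50.5 ± 7.43 CPM per kb (SD, n = 3). Fer1l6 at 38.0 ± 12.9 and Sytl2 at 35.5 ± 4.66 CPM per kb came next. Below them were Rab27a at 23.4 ± 3.90, Rab27b at 14.9 ± 5.34, Sytl4 at 13.5 ± 0.757, Sytl1 at 8.05 ± 2.17 and Sytl5 at 4.81 ± 1.97 CPM per kb. Libraries of neighbours in this order overlapped, except between Sytl2 and Rab27a and between Sytl4 and Sytl1. The order in ileum KO crypts was different: Vamp8 led with 29.9 ± 0.951, then came Rab15 with 11.1 ± 2.05 and Sytl1 with 4.82 ± 0.322 CPM per kb, while Rep15 was at 0.279 ± 0.138 CPM per kb (SD, n = 2).

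The make-up of the synaptotagmin-like members differed between the groups. Shares are of the summed CPM per kb of Sytl1, Sytl2, Sytl4 and Sytl5, and Sytl3, which is no member, was left out. Sytl1 supplied 16.4 to 33.4% of this sum in colon GFP, 84.5% in both colon KO and 59.3 to 62.4% in colon WT libraries. In ileum its share was 11.8 to 14.7% in GFP, 77.1 to 81.9% in KO and 41.6 to 42.3% in WT libraries. The share of Sytl2 ran the other way, at 56.2 to 59.7% in ileum GFP, 5.6 to 7.62% in ileum KO and 36.6 to 38.5% in ileum WT libraries. These shares had no overlap between the groups of a tissue. Since shares sum to the whole, a larger share of Sytl1 in KO crypts accompanied the lower Sytl2 and Sytl4, and its own level did not pass in either tissue. Rab27a made up 50.6 to 59.9% of the Rab27 pair in colon GFP, 53.7 to 63.2% in colon KO and 66.5 to 67.9% in colon WT libraries. In ileum it made up 58.1 to 68.1% in GFP, 58.9 to 69.9% in KO and 65.2 to 71.3% in WT libraries, which overlapped.

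**Figure D4:**
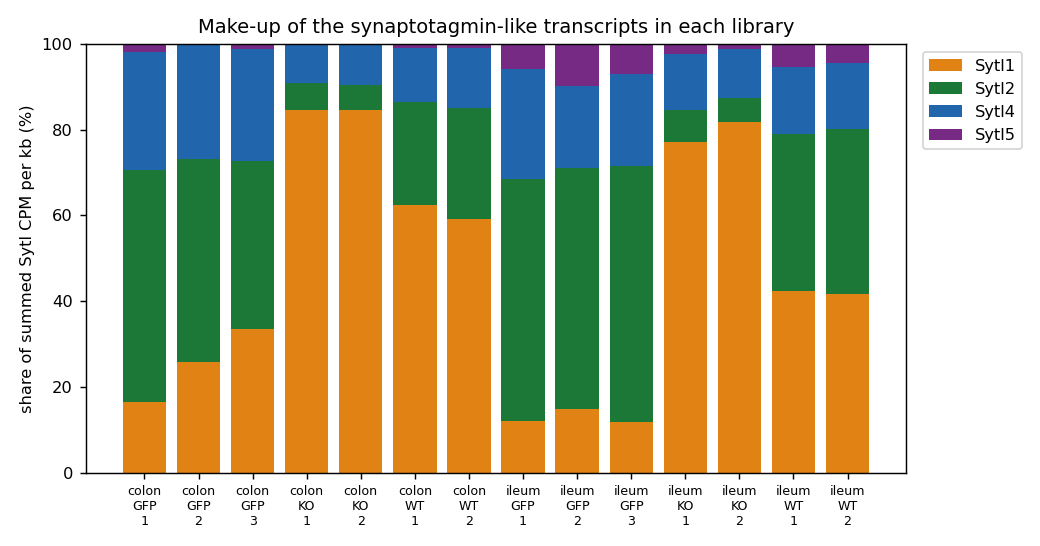
Share of each synaptotagmin-like gene in the summed CPM per kb of Sytl1, Sytl2, Sytl4 and Sytl5, in percent, with 1 stacked bar per library. Sytl1 makes up 77.1 to 84.5% in the KO libraries, and Sytl2 39.2 to 59.7% in the GFP libraries.

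A wider set of 70 genes of granule traffic was read in the same fits, in 4 lists (Rab27 effectors and regulators, secretory Rabs, SNAREs with their regulators, and ferlins, synaptotagmins and priming factors). In ileum KO crypts 4 of 57 tested genes fell and 0 rose (1.09% and 0.132% of all genes), with a median of -0.09 on the log2 scale. The genes that fell were Myrip, Syt13, Myof and Mlph. At an unadjusted p under 0.05 there were 15, against 1929 of the 14415 genes tested. DESeq2 called 8, against 496 of all genes, and at least 1 alternative called 0 of the 57. In colon KO crypts edgeR called 0 of 57, where 0.146% of all genes were lower and 0.00694% higher. There 12 were at an unadjusted p under 0.05, against 1108 of all genes, and DESeq2 called 5, against 159. Of the 19 SNARE genes tested, the list Vamp8 would belong to, the median in ileum KO crypts was -0.05.

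The 2 Rab27 effectors among the 4 link granules to myosin motors. Mlph (melanophilin), known from melanosome transport, averaged 30.7 ± 0.288 CPM in ileum KO and 127 ± 43.2 CPM in ileum WT crypts (log2 fold change -2.02, SE 0.26, edgeR adjusted p = 0.0248). It averaged 436 ± 95.4 CPM in ileum GFP cells (1.77 above WT on the log2 scale, SE 0.24, edgeR adjusted p = 5.04e-05). Myrip averaged 0.418 ± 0.260 CPM in ileum KO and 12.0 ± 5.40 CPM in ileum WT crypts (log2 fold change -4.77, SE 0.73, edgeR adjusted p = 0.0407). Myof (myoferlin), a ferlin of membrane repair, averaged 4.30 ± 0.983 CPM in ileum KO and 26.3 ± 5.27 CPM in ileum WT crypts (log2 fold change -2.58, SE 0.23, edgeR adjusted p = 0.0075). In colon Myof averaged 76.9 ± 1.97 CPM in KO and 63.4 ± 11.8 CPM in WT crypts.

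In sorted cells the wider lists held genes called in both directions. In ileum GFP cells 22 of 58 genes were higher and 9 lower than in WT crypts, against 24.6% and 28.1% of all genes. In colon GFP cells 12 of 58 were higher and 13 lower, near the 22.3% and 23.6% of all genes. Unc13d (Munc13-4), a priming factor that binds Rab27 in blood cells, averaged 0.492 ± 0.166 CPM in ileum GFP and 11.2 ± 8.13 CPM in ileum WT libraries, and 1.16 ± 0.323 CPM in colon GFP against 20.3 ± 2.35 CPM in colon WT libraries. Both differences passed (log2 fold change -4.53 and -4.15, edgeR adjusted p = 6.39e-06 and 4.77e-06). The 10 immune markers summed to 198 to 554 CPM in ileum GFP against 539 to 1846 CPM in ileum WT libraries, and to 6.72 to 133 CPM in colon GFP against 1349 to 1597 CPM in colon WT libraries. Their part in the Unc13d result was not tested. Between tissues, the interaction called 4 of the 58 genes: Myof, Myo5c, Mlph and Vamp2. All had a lower GFP against WT log2 fold change in colon than in ileum, which is not a lower level in colon. Of all genes 0.89% were called in that direction and 1.3% in the other, and 2 to 5 of the 58 were called across the alternatives. Mlph and the epithelial myosin Myo5c act with Rab27 proteins, and their interactions were -1.56 (SE 0.33, edgeR adjusted p = 0.0253) and -1.85 (SE 0.31, edgeR adjusted p = 0.00727), near the -1.51 of Rab27a.

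Across the 14 libraries the genes most like each member were found among 9628 candidates by Pearson's r of log2(CPM + 1), as a description in which all genes share the same libraries and group differences. Rab27a was most like Mlph (r = 0.97), Sytl2 like Ano7 (r = 0.99), Sytl4 like Ern2 (r = 0.99) and Rep15 like Hepacam2 (r = 0.99). Fer1l6 was most like Clca1, a goblet secretory product (r = 0.98), and both Rab27b and Rab15 were most like Galnt5, a mucin-type glycosyltransferase (r = 0.98 for each). Vamp8 (Ndufaf3, r = 0.97), Sytl5 (Tmem123, r = 0.97) and Sytl1 (Prkci, r = 0.95) had other nearest genes.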

How the data were processed

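Per the labels' protocols, RNA was purified with Trizol and a column kit, and library preparation followed Illumina's standard procedure. TopHat 1.4.1, HTSeq and the build mm9 are named in the submitters' processing notes. Which annotation release, HTSeq version and strand setting were used is not given in the sources used here. As values, the authors deposited raw whole-number counts per Ensembl gene, 1 table per library, and groups were taken from the labels. Of 36536 genes, 31004 were matched by Ensembl ID to a symbol of GENCODE M21, which is of another build and was used only for symbols and exon length. No member shares exon bases with another gene of the tables. The long exon model of Sytl2 (13941 bases) lowers its CPM per kb. The special HTSeq lines stayed out of library sizes and tests. Reads outside genes made up 24.9 to 52.3% of uniquely placed reads in sorted cells and 9.30 to 13.2% in crypts.

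CPM are gene counts divided by an effective library size, the summed gene counts multiplied by a TMM factor (0.638 to 0.785 in sorted cells, 1.25 to 1.35 in crypts). Genes were tested with edgeR 4.0.16 in R 4.3.3 (quasi-likelihood F-test, robust, TMM, filterByExpr by group), with Benjamini-Hochberg adjustment over all genes tested and a threshold of 0.05. KO against WT, its interaction with tissue and the WT tissue comparison used the 8 crypt libraries (14415 genes, with a biological coefficient of variation of 0.20), and comparisons with GFP used all 14 (15274 genes, 0.23). Alternatives were DESeq2 1.42.0, no filter on low counts, DESeq2 size factors, leaving genes above 1% of counts out of library sizes, the replicate number as a block, other sets of libraries and leaving out each library. Same-numbered crypt libraries of colon and ileum deviated together (r = 0.292 for KO and 0.256 for WT). With 2 libraries per group, numbers 1 and 2 give the same r. Their deposited tables carry the same number in both tissues. The main fits took no libraries as pairs. Pairing entered only through the replicate block, an alternative that used the number for sorted cells as well. The correlations were -0.038 to 0.075 within a tissue and -0.093 to 0.074 between sorted cells of the tissues.

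The rule for names took all 10 members, Atoh1, up to 4 called genes per direction of the pathway lists in each comparison, and the 3 genes most like each member (at least 10 CPM in 1 group), and the text names a part of these. Of 70 pathway entries 69 were matched, and Vamp7 was not. The members and lists were chosen with earlier results of these data known. The scripts were tested on simulated data. The promoter windows come from RefSeq on GRCm38.p6. Windows for Sytl2, Rab27b, Rep15 and Fer1l6 were not used here.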

Additional observations from a re-analysis of the deposited data

Results flagged for a closer look

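The difference between sorted GFP-positive cells and WT crypts was not the same in colon and ileum for 3 members, by the interaction test of edgeR (Benjamini-Hochberg adjusted p over all genes, where 0.89% of genes were called in the same direction and 1.3% in the other). All 3 calls were lost with the compared groups alone and with any 1 of 6 libraries left out (colon GFP 2 or 3, ileum GFP 2 or 3, colon WT 2 or ileum WT 1), and that of Sytl2 also when genes above 1% of counts were left out of library sizes (adjusted p = 0.0535) and with the replicate block (adjusted p = 0.051). Sytl2 was 324, 234 and 196 CPM in colon GFP against 85.3 and 114 CPM in colon WT libraries, with an interaction (colon minus ileum) of -1.38 on the log2 scale (adjusted p = 0.0489). Sytl4 did not pass between colon and ileum GFP cells (log2 difference -0.40, edgeR adjusted p = 0.0995). In WT crypts it was higher in colon than in ileum (0.81, edgeR adjusted p = 0.0488). For Sytl4 the interaction was -1.20 (adjusted p = 0.0361), and all GFP libraries stood above all WT libraries in both tissues. For Rab27a it was -1.51 (adjusted p = 0.0444), where the colon groups overlapped and the ileum groups did not. The tissues also differed in Paneth markers, which summed to 155 to 2413 CPM in colon GFP and 58649 to 83133 CPM in ileum GFP libraries, and their part in these results was not tested.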

How the results depend on the processing

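Direction and side of the threshold were kept in most settings: of 460 member values with 1 library left out, 388 were unchanged in both, 45 lost and 12 gained a call and 15 changed sign, and of 506 values under the other settings these numbers were 466, 15, 23 and 2. For colon KO against WT the count of called members was 1, but 4 with DESeq2, 4 with all 14 libraries, 2 with the colon libraries alone, and 0 without any 1 colon library. For ileum KO against WT it was 6, but 0 with the ileum libraries alone and 0 to 7 with a library left out. The KO interaction called 0, but 2 with DESeq2 and 0 to 3 with a library left out. Colon GFP against WT called 5, and 3 to 5 with a library left out. The GFP interaction called 3, but 7 with no filter on low counts, 5 with DESeq2, 0 with the compared groups alone and 0 to 5 with a library left out. Colon WT against ileum WT called 2, but 1 with DESeq2, 1 with the WT libraries alone, 4 with the replicate block and 1 to 6 with a library left out. Ileum GFP against WT (9) and colon GFP against ileum GFP (4) stayed within 1.5 times of their counts. The replicate block also ended the call of Sytl2 in the GFP interaction (adjusted p = 0.051), where sorted cells share only a number. Beside the calls gained in WT, it changed no other call of a member. In the totals above, members that were uncalled and stayed so count as unchanged, and only called members can lose a call.

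Among uncalled members, Vamp8 in ileum KO reversed with all 14 libraries (-0.001) and ranged from -0.047 to 0.128 with a library left out, and Fer1l6 in colon GFP reversed with no filter (-0.051) and ranged from -0.35 to 0.47. With a library left out, signs also changed for the KO interactions of Sytl5 (-3.22 to 0.79) and Vamp8 (-0.002 to 0.17), and in colon GFP against WT for Sytl5 (-0.028 to 1.34) and Rab27a (-0.37 to 0.11). They did so for the GFP interaction of Vamp8 (-0.13 to 0.25), for Sytl1 (-0.007 to 0.45), Rab15 (-0.38 to 0.10) and Rep15 (-0.57 to 0.019) in colon against ileum GFP, and for Rab27b (-0.029 to 1.08) and Fer1l6 (-0.022 to 1.12) in colon against ileum WT. The causes were not tested.

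Counts over all genes moved more. Colon KO called 22 genes, but 159 with DESeq2, 73 with all 14 libraries, 102 with the colon libraries alone, 56 with no filter and 0 to 14 with a library left out. Ileum KO called 176, but 496 with DESeq2, 265 with all 14, 4 with the ileum libraries alone and 11 to 1403 with a library left out. The KO interaction called 1, but 58 with DESeq2, 9 with no filter, 2 with the block and 0 to 335 with a library left out. The GFP interaction called 335, but 855 with DESeq2, 1093 with no filter, 155 with the compared groups and 137 to 672 with a library left out. Colon against ileum called 3474 genes in GFP (2147 with these groups alone) and 2872 in WT (1213 with these groups alone, 1836 with all 14, 1289 to 3544 with a library left out). Colon GFP against WT called 7007, and at least 4184 with a library left out. Depth limits Sytl5, which had 2 to 40 counts per crypt group.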
